A study of Homo sapiens with 28 samples.

Results

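The cytosolic ribosomal protein (RP) genes were examined for N6-methyladenosine (m6A) on chromatin-associated RNA, the RNA that remains bound to chromatin after cell fractionation. A gene was a member if GENCODE annotated it as protein-coding on hg38 and its symbol was RPL or RPS with a number and an optional final A, X, L or AL, or was RPLP0, RPLP1, RPLP2 or RPSA. This rule gave 82 of 20033 protein-coding genes, 50 for the large (60S) subunit and 32 for the small (40S) subunit. A listed peak belonged to a gene if its summit lay on the strand of the gene, from 1000 bases upstream of the gene start to the gene end.

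Peaks came from methylated RNA immunoprecipitation sequencing (MeRIP-seq), in which fragments pulled down with an m6A antibody (IP libraries) are compared with a local background. HepG2 WT (n = 2) and K562 WT (n = 2) were unmodified cells, from a hepatoma and a myelogenous leukaemia line. The K562 groups named Control and RBFOX2 KD (2 libraries each) and the NB4 groups of those names (3 libraries each) carried lentiviral short hairpins, directed in the KD groups against RBFOX2, an RNA-binding protein. NB4 is an acute promyelocytic leukaemia line, and the KD comparison asks whether m6A on chromatin-associated RNA depends on RBFOX2. The study's methods speak of biological replicates, while the labels do not say what separates them (cultures or days), so p-values measure the spread between these libraries.

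RP genes encode the proteins that assemble with ribosomal RNA into the ribosome. Their mRNAs are short, abundant and made from genes with short introns and exons, many of which host small nucleolar RNAs (snoRNAs) in their introns. Most of the transcripts begin with a 5′ terminal oligopyrimidine (TOP) tract that couples their translation to growth signals. m6A is added during transcription to adenosines in the context DRACH, where D is A, G or U, R is A or G and H is A, C or U. It is known to be common in long exons and near stop codons and rare close to splice junctions.

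The 14 lists held between 22700 and 44088 peaks, and the depth recovered from them ranged from 10.8 to 30.04 M effective reads. Of 7 marker genes fixed for each line, 7 had a peak in both K562 WT libraries, 6 in every NB4 Control library and 3 in both HepG2 WT libraries. The lists were not exclusive, since the NB4 markers SPI1, CD33 and CSF3R and the HepG2 marker HNF4A were also listed in both K562 WT libraries, EPOR was listed in all 14 libraries, and GATA1 in all 3 NB4 KD libraries and no NB4 Control library. The hepatocyte genes ALB and AFP and the promyelocyte gene ELANE had no peak in any list. RBFOX2 itself carried 2 or 3 peaks in each K562 Control library and 3 in each K562 KD library, which does not measure its RNA level, so the lists hold no check of the knockdown.

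RP genes with a peak are shown here by short stretches of genomic sequence near the median summit of a recurrent region. Summits of single libraries could lie outside the printed bases. In RPL13 they ran from 89562880 (K562 WT 2) to 89563193 (NB4 Control 1). For each gene, the region listed in the most libraries was taken, and the 30 bases holding the DRACH match nearest to its median summit, within 75 bases, were read from hg38 on the strand of the gene. Capitals mark a GGACU match (written GGACT) where there was one within 75 bases, and otherwise another DRACH match. RPL31, RPL36AL and RPL36 had a peak in all 14 lists, and RPS24, RPL41, RPL13A, RPL13 and RPL22 were added after their values were seen.
RPL31, chr2:101011340-101011369, plus strand: gacgaagggaaaAGACAaggctgctacaag
RPL36AL, chr14:49619020-49619049, minus strand: agcctcacaaagTGACAcagtataagaagg
RPL36, chr19:5680339-5680368, plus strand: acgaaggggaagTGACTctaagggaagcga
RPS24, chr10:78054590-78054619, plus strand: cacagatgtgaaGAACTcgaaggcaagaga
RPL41, chr12:56117594-56117623, plus strand: gtacaagttgtgGGACTgcatgctactgtc
RPL13A, chr19:49491915-49491944, plus strand: caggcagccctgGGACAtaggaagctggga
RPL13, chr16:89563168-89563197, plus strand: ggctttcttgaaAGACAgtccaagccctgg
RPL22, chr1:6206988-6207017, minus strand: ccgggagcgtccTGACCagtgctggagccc
Of the genes shown, only RPL41 had a GGACU match within 75 bases of the summit, 30 bases upstream of it. The marked adenosine fell on the median summit itself in RPL36AL and RPL13A. In RPL36AL the single-library summits ran from 49618848 (NB4 KD 2) to 49619082 (NB4 KD 3), and none lay on that base. In RPL13A they ran from 49491926 (HepG2 WT 2) to 49491934 (K562 Control 1).

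Few RP genes carried an m6A peak. In HepG2 WT 1 and 2, 6 and 10 of the 82 genes did (7.32 and 12.2%), and in both K562 WT libraries 18 (21.95%). K562 Control 1 and 2 had 24 and 26 such genes (29.3 and 31.7%), and K562 KD 1 and 2 had 22 and 21 (26.8 and 25.6%). NB4 Control 1, 2 and 3 had 11, 12 and 12, and NB4 KD 1, 2 and 3 had 14, 12 and 13. In every library the share was below that of all protein-coding genes, which ranged from 37.1 to 48.9%, and below that of 7681 other protein-coding genes of similar length (between the 10th and 90th percentiles of RP gene length), which ranged from 31.1 to 43.0%.

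**Figure D1:**
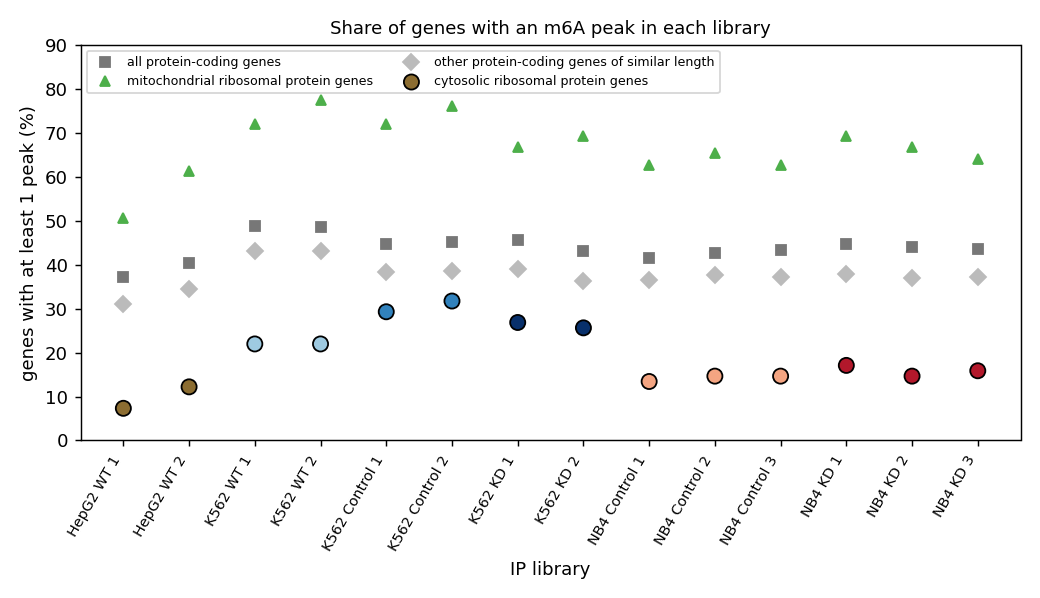
Share of genes with at least 1 peak (vertical axis, %) in each of the 14 IP libraries (horizontal axis), with large circles for the 82 cytosolic RP genes (coloured by group), squares for all protein-coding genes, diamonds for other protein-coding genes of similar length and triangles for mitochondrial RP genes. The circles lie between 7.32 and 31.7%, below the squares, diamonds and triangles of the same library in all 14.

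Counting only genes with a peak in every library of a group gave the same order of groups. For HepG2 WT, 6 RP genes met this (7.32%), against 36.3% of all protein-coding genes. For K562 WT the count was 16 (19.5%, against 47.1%), for K562 Control 22 (26.8%, against 42.4%) and for K562 RBFOX2 KD 17 (20.7%, against 42.1%). For NB4 Control it was 8 (9.76%, against 37.9%) and for NB4 RBFOX2 KD 10 (12.2%, against 40.5%). The share of RP genes relative to that of all protein-coding genes was 0.197 and 0.302 in the HepG2 libraries, and between 0.323 and 0.383 in the 6 NB4 libraries. It was 0.449 and 0.453 in K562 WT and between 0.589 and 0.704 in the other 4 K562 libraries.

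Other genes of the ribosome pathway carried peaks more often, to different degrees. Of 75 mitochondrial RP genes, which encode the separate ribosome of mitochondria, 50.7 to 77.3% had a peak in a library, and 30 had one in all 14, as did 25.4% of all protein-coding genes. All 24 genes listed for ribosome biogenesis had a peak in at least 1 library, and 10 had one in all 14, among them NOP2, PES1 and the RNA polymerase I subunit genes POLR1A and POLR1B. The 17 other TOP genes had a lower share than those lists, with 12 listed anywhere and a median over libraries of 35.3%. That median was 16.5% for the RP genes and 43.7% for all protein-coding genes. EEF1D, EIF3L and TPT1 were listed in all 14 libraries, while EIF2S3, EIF3H, HNRNPA1, GAS5 and SNHG1 were listed in none. Of 6 RP-related genes outside the symbol rule, RPL7L1 had a peak in all 14 lists, and RACK1 in 7, while FAU, RPL22L1 and RPL26L1 had none.

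Over all 14 lists, 38 RP genes had a peak at least once and 44 never did. The 38 comprised 24 of 50 genes of the 60S subunit (48.0%) and 14 of 32 of the 40S subunit (43.8%), while 63.0% of all protein-coding genes had a peak at least once. In all 14 libraries 4 genes were listed (4.88%, against 25.4% of all protein-coding genes), 7 in 9 to 13, 22 in 2 to 7 and 5 in a single one. The longest of the genes without a peak were RPS27L, RPS3, RPL30, RPS4X, RPL10, RPL6, RPL3L, RPL5, RPS15A and RPL15, between 7784 and 32150 bases. RPL5 is known for holding MDM2 in check together with RPL11, and RPL3L is a muscle paralog of RPL3. Of 28 RP genes that host an annotated snoRNA, 16 were without a peak. Overlapping peaks of the 38 genes merged into 74 regions, and 2 of these, 1 of them in RPL12, overlapped a snoRNA, with no median summit inside one.

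**Figure D2:**
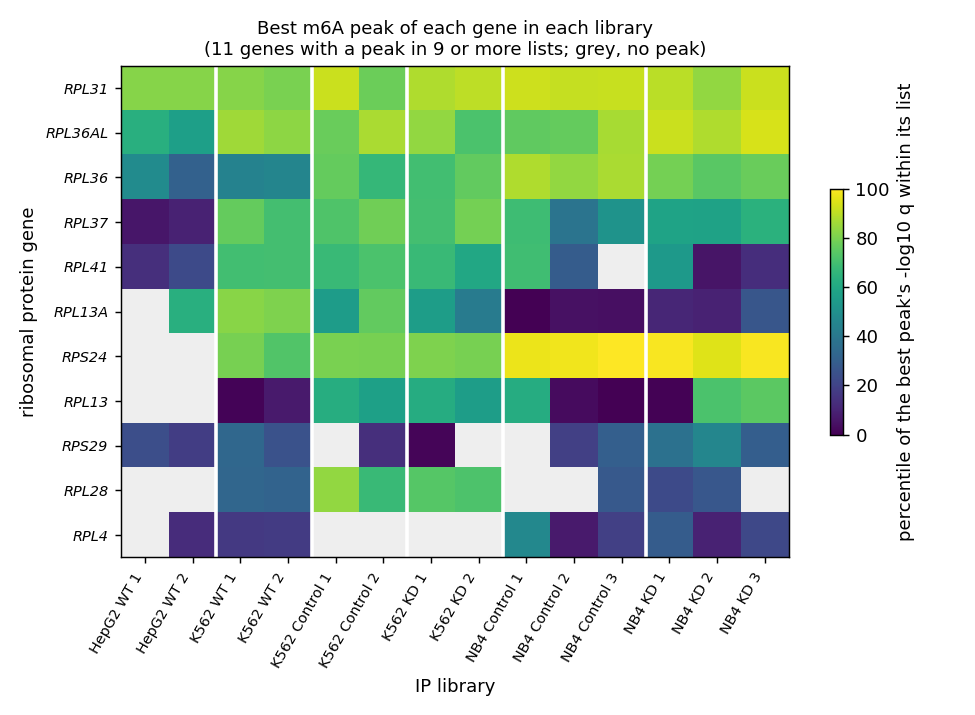
Percentile of the -log10 q of the best peak within its own list (colour, 0 to 100) for each of the 11 RP genes with a peak in 9 or more lists (rows, ordered by the number of libraries) in the 14 IP libraries (columns, grouped). Grey marks a gene with no listed peak; RPL31, RPL36AL, RPL36 and RPL37 fill all 14 columns, and RPS24, RPL13 and RPL28 are grey in both HepG2 columns.

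RPL31, a 60S protein gene on chromosome 2 (101002229 to 101024032), held the highest-ranked peaks among the genes listed everywhere, with a median percentile of its best peak of 88.8. Its canonical transcript spans 4979 bases, yet the 3 recurrent regions had summits 9015, 14308 and 19264 bases from the canonical start, past the canonical end. Each lay in an intron of longer RPL31 transcripts, opposite to TBC1D8 on the other strand. At the first, fold over local background was 4.09 in both HepG2 libraries, 9.40 and 10.2 in K562 WT, 14.2 and 8.54 in K562 Control and 14.6 and 16.7 in K562 KD. It was 14.045, 9.69 and 7.55 in NB4 Control and 7.17, 5.24 and 8.57 in NB4 KD. The HepG2 folds were the lowest, the K562 KD folds exceeded those of K562 Control, and NB4 Control and KD overlapped. Whole lists differed in fold as well. Their median folds averaged 3.94 in HepG2 WT, 5.69 in K562 WT, 7.08 in K562 Control and 7.74 in K562 KD. They averaged 5.70 in NB4 Control and 5.26 in NB4 KD. The HepG2 percentiles of 74.7 and 72.0 lay between the K562 Control values of 80.2 and 70.2, and below those of the other groups.

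RPL36AL, an intron-poor paralog of RPL36A on chromosome 14 (49618530 to 49620626), had a single region in the coding part of its second and last exon. Its fold was 3.81 and 3.43 in HepG2 WT, 14.3 and 12.1 in K562 WT, 16.4 and 19.0 in K562 Control and 19.9 and 14.5 in K562 KD. The NB4 Control libraries gave 6.25, 4.27 and 6.04 and the KD libraries of this line 10.6, 7.40 and 17.7. The NB4 groups did not overlap, whereas the K562 Control and KD libraries did.

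The recurrent peak of RPL36, on chromosome 19, lay 9960 bases before the canonical start, in an intron of 1 of its 8 annotated transcripts. Fold there was 4.19 and 3.74 in HepG2 WT, 4.68 and 4.23 in K562 WT, 15.5 and 10.0 in K562 Control and 12.6 and 16.0 in K562 KD. NB4 Control gave 16.3, 12.2 and 13.1 and NB4 KD 9.73, 9.36 and 10.2, so that all 3 KD values were below all 3 Control values in this line. K562 WT lay with HepG2 at this region and apart from the other K562 libraries.

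RPL37 has the longest last exon of the family, 7312 bases of a 7573-base transcript on chromosome 5, and both of its regions lay in the 3′ untranslated region (UTR). At the region present in all lists, fold was 1.91 and 2.03 in HepG2 WT, 5.83 and 4.92 in K562 WT, 7.43 and 9.39 in K562 Control and 7.26 and 9.45 in K562 KD. NB4 Control gave 3.58, 2.27 and 2.58, and its KD libraries gave 2.97, 2.79 and 3.12. K562 libraries were above all NB4 and HepG2 libraries, and Control and KD overlapped in both lines.

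**Figure D3:**
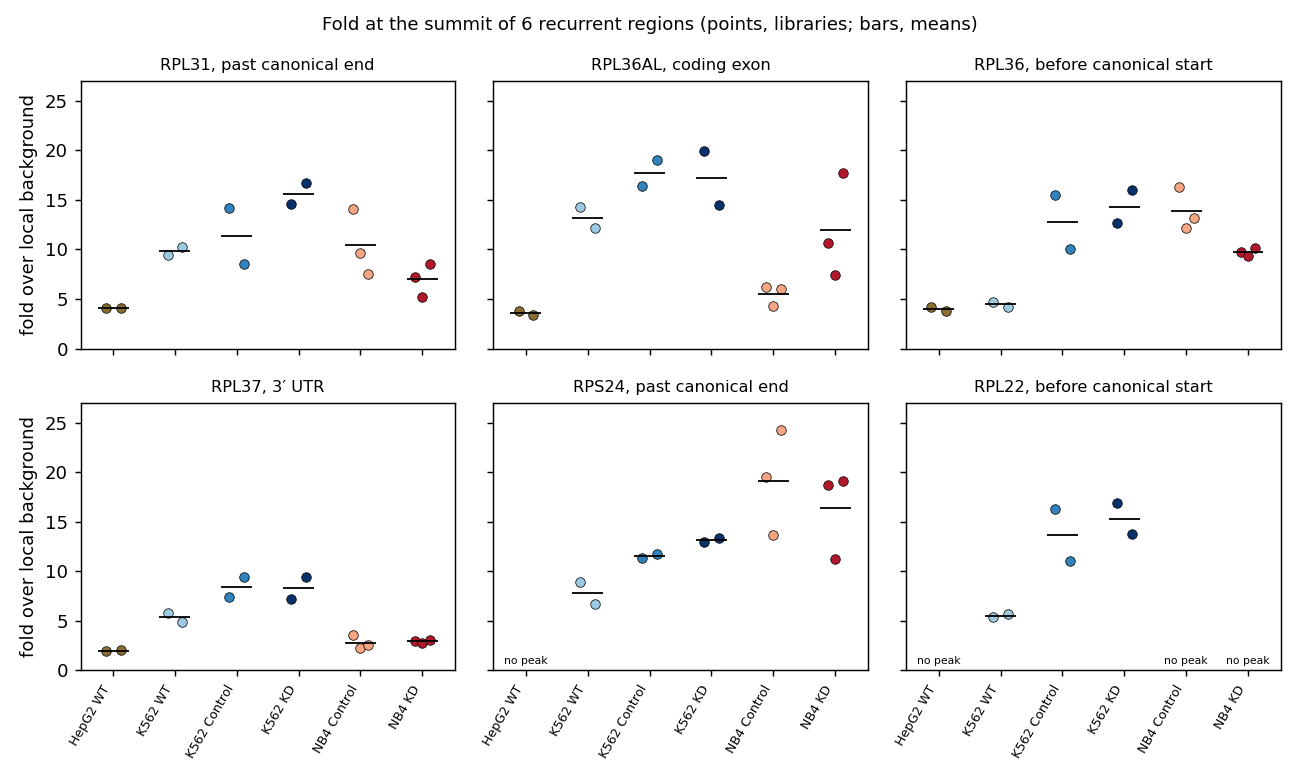
Fold over local background at the summit (vertical axis) by group (horizontal axis) for 6 recurrent RP regions, with 1 point per library and bars at the group means; a group with no listed peak is marked as such. RPL31, RPL36AL and RPL37 are lowest in HepG2 WT, RPS24 has no peak there and its highest group means in NB4, and RPL22 is listed in K562 alone. The median fold of whole lists was also lowest in HepG2 WT (mean 3.94).

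HepG2 lists lacked RPS24 and RPL13, which every library of both leukaemia lines held. Genes in every NB4 and no HepG2 library numbered 2 (2.44%, against 6.7% of all protein-coding genes), and in every K562 and no HepG2 library 5 (6.10%, against 7.69%), so such genes were no more frequent in the RP family than elsewhere. RPS24, a 40S gene that is alternatively spliced towards its 3′ end and is mutated in Diamond-Blackfan anaemia, and RPL13 had a peak in all 6 K562 and all 6 NB4 libraries and in neither HepG2 library. RPS24 carried 7 regions. The one 20725 bases from the canonical start lay in an exon of 2 other RPS24 transcripts, with folds from 6.66 to 13.4 in K562 and from 11.2 to 24.3 in NB4. Its median percentile of 84.2 was the highest of any RP region listed in 7 or more libraries. RPL13, whose region had its median summit in the 3′ UTR of its 1659-base last exon, ranged from 1.36 to 8.11 in fold and from 0.143 to 74.9 in percentile. Folds of 1.36 to 1.83 came with summits from 89562880 to 89562981, in K562 WT 1 and 2, NB4 Control 2 and 3 and NB4 KD 1. The other libraries had summits from 89563154 to 89563193, with folds from 3.90 to 8.11. K562 WT held 8 genes in both libraries that neither HepG2 library listed, RPL13, RPL22, RPL28, RPL29, RPL3, RPL39L and RPS24 among them (9.76%, against 12.4% of all protein-coding genes), and the reverse held for 0 (against 4.53%).

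RPL22, a 60S protein gene whose RPL22L1 paralog was never listed, was the 1 RP gene found in all 6 K562 and no NB4 library (1.22%, against 4.14% of all protein-coding genes), and HepG2 lacked it as well. Its summit lay 7405 bases before the canonical start, in an intron of longer RPL22 transcripts and opposite to RNF207. Fold was 5.36 and 5.70 in K562 WT, 16.3 and 11.0 in K562 Control and 16.9 and 13.7 in K562 KD. The WT values were the lowest, and Control and KD overlapped. RPL28 was also in all K562 libraries and absent from HepG2, and was listed in 3 of the NB4 libraries.

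Between the Control libraries of the leukaemia lines, 12 RP genes were listed in both K562 and in no NB4 library (14.6%, against 6.63%). These included RPL12, RPL22, RPL27A, RPL3, RPL35, RPL8, RPLP0, RPS16 and RPS18, and of those named here all but RPL22 and RPL3 had no peak in K562 WT either. RPL4 was the 1 gene in the reverse direction (1.22%, against 5%). It had a low peak in its last exon in both K562 WT and all NB4 libraries, with folds between 1.69 and 2.50, and none in K562 Control or KD. RPS18 lies in the major histocompatibility region, where hg38 holds alternate contigs, and 4 of 5 contigs with a copy of its summit also carried listed peaks in all 4 K562 Control and KD libraries.

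The percent of RP genes with a peak was 9.76 ± 3.45 in HepG2 WT, 21.95 ± 0 in K562 WT and 30.5 ± 1.72 in K562 Control (SD, n = 2 each). It was 14.2 ± 0.704 in NB4 Control (SD, n = 3). K562 WT exceeded HepG2 WT by 12.2 percentage points and K562 Control exceeded K562 WT by 8.54, each with p = 0.333 in a two-sided exact permutation test, the smallest p that 2 libraries against 2 allow. NB4 Control was 16.3 points below K562 Control and 4.47 points above HepG2 WT, each with an exact permutation p of 0.1, the smallest for 3 against 2. The groups did not overlap in any of these 4 comparisons, and neither did they for all protein-coding genes. The share of all protein-coding genes was 9.94 points higher in K562 WT than in HepG2 WT and 3.74 points higher in NB4 Control than in HepG2 WT. For NB4 Control against K562 Control it differed by -2.32 points. From K562 WT to K562 Control it went the other way from the RP share, by -3.88 points. The numbers of listed peaks and of effective reads differed as well: HepG2 WT had 22700 and 27438 peaks at 26.9 and 30.04 M reads, K562 WT 44088 and 43403 at 25.6 and 24.9, and K562 Control 36887 and 38518 at 14.8 and 19.5. NB4 Control had 29609 to 33497 peaks at 10.8 to 15.6 M reads. With the lists trimmed to equal length, K562 WT exceeded HepG2 WT by 4.27 points and the difference of NB4 Control from K562 Control was -9.35. NB4 Control then exceeded HepG2 WT by 1.63 points with overlapping groups (exact permutation p = 0.4), and with -log10 q of at least 10 by 3.66 points (exact permutation p = 0.2).

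The share of RP genes with a peak was lower after RBFOX2 KD in both K562 libraries and higher in all 3 NB4 libraries than the Control mean of the line. Neither difference passed its test, and at these group sizes neither test could give a p below 0.05. The share of all protein-coding genes changed by 1.53 points in NB4, with all 3 KD libraries above the Control mean, and by -0.45 points in K562. In K562 the Control mean of 30.5 ± 1.72% stood against a KD mean of 26.2 ± 0.862% (SD, n = 2 each), a difference of -4.27 points (two-sided exact permutation p = 0.333, the smallest possible). The NB4 Control mean of 14.2 ± 0.704% stood against a KD mean of 15.9 ± 1.22% (SD, n = 3 each), a difference of 1.63 points (two-sided exact permutation p = 0.3, smallest possible 0.1). Over both lines the mean difference was -1.32 points (exact permutation within lines, p = 0.45, adjusted over 3 measures 0.45). The K562 change minus the NB4 change was -5.89 points (exact permutation p = 0.05, adjusted over 3 measures 0.15). Effective reads moved the same way, with a log2 difference of KD from Control of -0.24 in K562 and 0.51 in NB4. After matching depth the changes were -3.05 and 1.22 points, and with lists of equal length -1.83 and -1.22.

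RP peaks per 1000 listed peaks numbered 1.10 ± 0.0226 for K562 Control against 0.943 ± 0.0159 after KD (SD, n = 2 each). For NB4 Control the number was 0.546 ± 0.0187 against 0.560 ± 0.0346 after KD (SD, n = 3 each). The mean difference over both lines was -0.0715 (exact permutation p = 0.233, adjusted 0.35). A promoter peak was one with its summit from 1000 bases before to 100 bases after any annotated start of the gene. The lists held 1 to 7 such RP peaks each, which made up 17.5 and 16.3% of RP peaks in K562 Control, 11.1 and 11.8% in K562 KD, 12.5, 11.8 and 5.26% of those in NB4 Control and 4.55, 5.00 and 9.09% of those after KD. All 5 KD libraries were below the mean of their Controls, by 4.54 percentage points on average (exact permutation within lines, p = 0.0333), which did not pass after adjustment over the 3 measures (adjusted p = 0.1). With only the canonical start of each gene counted, the difference shrank to -0.87 points (exact permutation p = 0.667).

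RP genes with a peak in both K562 Control libraries and in neither KD library numbered 3 (3.66%, against 0.454% of all protein-coding genes). Among them were RPL8, a 60S protein gene of the peptidyl transferase region, and the 40S gene RPS16. RPL8 had folds of 2.71 and 6.07 in its last exon. RPS16 was listed at 2 different places, in the 3′ UTR with a fold of 3.73 in Control 1 and in the second exon with 2.02 in Control 2. None of the 3 was listed in K562 WT or in any other line, and their peaks ranked between the 0.0182th and 39.9th percentiles of their lists. With lists of equal length no gene met the definition.

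RPS9 was the 1 gene gained on KD in K562 (1.22%, against 0.329%). Its summit lay 39576 bases from the canonical start and past the canonical end, in an intron of 1 of 13 RPS9 transcripts and opposite to LILRA6. Folds there were 5.70 and 4.97 in KD 1 and 2. This part of chromosome 19 is copied by 4 alternate contigs, 2 of which carried peaks in the same KD libraries. In NB4 no RP gene was lost (against 0.28% of all protein-coding genes) and none was gained (against 0.419%).

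Where an RP region was listed in every Control and KD library of a line, the fold could be compared directly. This comparison was added after the values were seen. In K562, 23 RP regions qualified, and every KD fold was below every Control fold in 3 (13.04%, against 9.64% of 25297 regions of all kinds) and above in 5 (21.7%, against 23.2%). The lower regions included those of RPL13A and RPL36, and the higher ones those of RPL28, RPL31, RPLP0 and RPS24. At RPL31 the fold was 11.3 ± 3.97 in the Control pair against 15.6 ± 1.49 after KD (SD, n = 2 each), and no single-region test was run. In NB4, 9 RP regions qualified, and KD was below Control in 1 (11.1%, against 10.3% of 18180 regions) and above in 2 (22.2%, against 9.64%). The first was the RPL36 region before the canonical start (Control 13.9 ± 2.14, KD 9.76 ± 0.421), and the others were RPL36AL (Control 5.52 ± 1.09, KD 11.9 ± 5.27) and RPL13A (Control 1.72 ± 0.104, KD 2.14 ± 0.220; SD, n = 3 each). In K562 the same RPL36 region had overlapping folds, 12.7 ± 3.86 in Control against 14.3 ± 2.36 after KD, and the lower K562 region of this gene was another one, inside the canonical transcript (SD, n = 2 each). RPL36AL did not repeat the NB4 difference in K562, where the Control mean was 17.7 ± 1.86 and the KD mean 17.2 ± 3.84, and RPL13A went the other way there, from 4.99 ± 1.22 to 3.89 ± 0.292 (SD, n = 2 each).

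Peaks of RP genes were placed differently along the gene from those of other genes. A median over libraries of 28.4% of RP peaks (range 12.5 to 50%) had summits past the end of the canonical transcript, inside a longer annotated form of the gene, against 3.49% (2.91 to 4.15%) for other protein-coding genes. Summits before the canonical start made up 12.5%, against 5.24%. Coding exons held 15.4%, against 27.4%, and introns 18.8%, against 43.5%. The 3′ UTR share was 20.5%, against 14.3%. The 352 RP peaks came from few genes, and RPS24, RPL31 and RPL36 alone gave 49, 44 and 41 of them. When only peaks within the canonical transcript were kept, the difference in the percent of RP genes between KD and Control was -3.66 points in K562 and 2.03 in NB4.

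**Figure D4:**
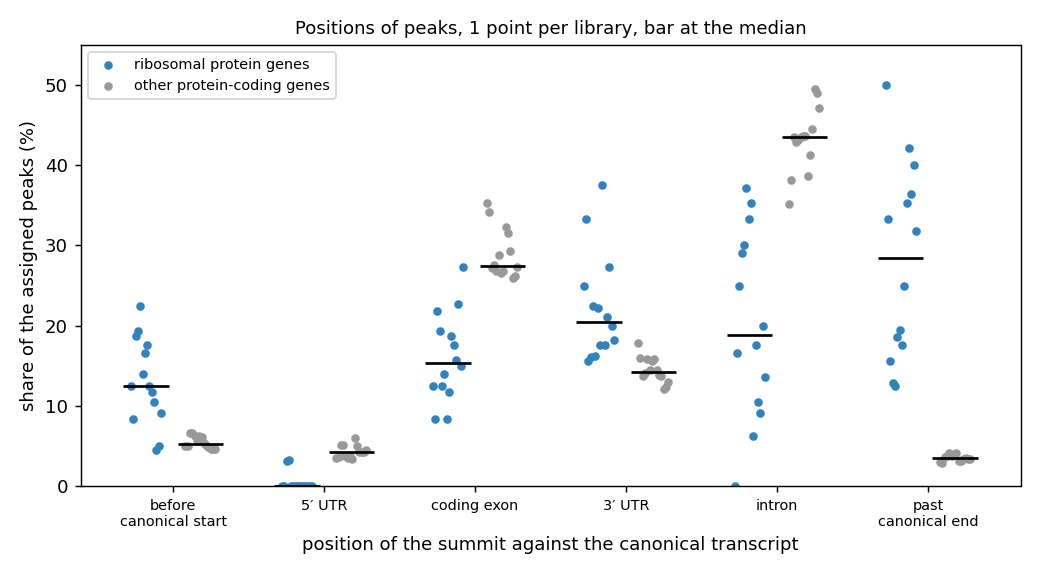
Share of peaks (vertical axis, %) by position of the summit against the canonical transcript (horizontal axis), with 1 point per library and bars at the median over 14 libraries, in blue for RP genes and grey for other protein-coding genes. RP points are higher past the canonical end (median 28.4%, against 3.49%) and lower in introns and coding exons.

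Some of the intronic RP summits lay close to an exon, and the same count was not made for other genes. Of 27 intronic regions, 12 had a median summit within 50 bases of an exon of the canonical transcript, among them RPS24 (6 bases, 12 libraries) and RPL36 (6 bases, 8 libraries). Reads had been extended to 150 bases along the genome, so a summit this close to a splice site may belong to the exon or the intron. RPL28 had an intronic region listed in all 6 K562 libraries only, with a median summit 163 bases from the nearest exon. No single-library summit lay at that median, so this distance holds for none of them. Summits were near 55387900 in WT 1, WT 2 and Control 2, and near 55387635 in Control 1, KD 1 and KD 2. Folds were 3.87 and 3.77 in WT, 19.7 and 10.3 in Control and 14.03 and 14.3 in KD, and thus do not all belong to the same place. The 3′ UTR region of RPL28 in a 3843-base last exon was also listed in 3 NB4 libraries.

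Exonic peaks per library were more frequent, at the median, among RP genes with longer exons. The longest exon of the canonical transcript had a median of 276 bases in RP genes and 1465 bases in all protein-coding genes. Among 39 RP genes whose longest exon was under 250 bases, a median over libraries of 2.56% had an exonic peak, against 8.95% of all protein-coding genes in the same class. From 250 to below 500 bases the medians were 8.33 and 17.2%, from 500 to below 1000 bases 16.7 and 28.04%, and from 1000 bases 21.1 and 41.8%. The RP median was the lower one in each class. Counted over any list, the RP share was 15.4, 41.7, 25 and 36.8% with increasing exon length, against 23.7, 36.4, 45.9 and 60.8% of all protein-coding genes, so it did not rise steadily and was the higher one from 250 to below 500 bases. The 8 genes with an exonic peak in 7 or more lists had a median longest exon of 1125 bases, against 236 bases for the 61 with none in any list. Of the 19 RP genes with an exon of 1000 bases or more, 8 (RPS27L, RPS23, RPL23, RPS15A, RPL15, RPL32, RPL10 and RPS3) had no peak in any list.

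**Figure D5:**
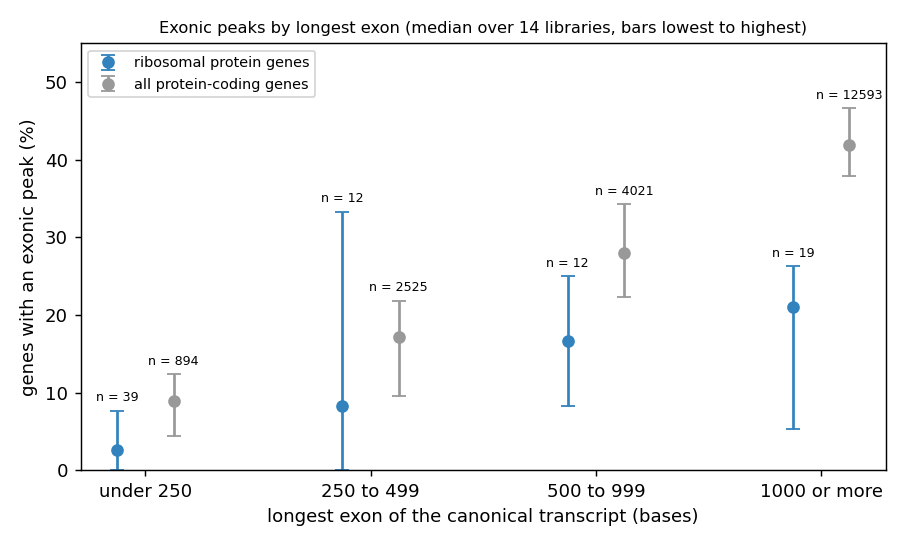
Percent of genes with an exonic peak (vertical axis) by the longest exon of the canonical transcript in bases (horizontal axis), for RP genes (blue) and all protein-coding genes (grey). Points are medians over 14 libraries, bars run from the lowest to the highest library and n is the number of genes; RP medians rise from 2.56 to 21.1% and stay below the grey ones.

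Pooled over RP transcripts, the m6A sequence context was slightly less dense per base than elsewhere, and it was scarcer per transcript. DRACH occurred 18.0 times per 1000 bases of canonical RP transcript and 19.2 times in all protein-coding ones, and GGACU 0.873 and 0.978 times. The GGACU density was 1.34 in the 21 RP genes with an exonic peak in any list and 0.607 in the 61 without. The median RP transcript held 16.5 DRACH matches, 3 of them over 100 bases from an exon junction, while the median protein-coding transcript held 54 and 30. A GGACU over 100 bases from a junction was present in 28.05% of RP transcripts and in 70.1% of all. It was present in 6 of the 8 RP genes with an exonic peak in 7 or more lists, and in 13 of the 61 genes without an exonic peak. RPL36AL, listed in all 14 libraries, had no GGACU in its transcript.

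Around the RP summits themselves the motif was about as frequent as in other peaks. On the strand of the peak, GGACU lay within 75 bases of the summit in a median of 25.0% of RP peaks per library (range 5.88 to 37.5%), against 24.5% (22.04 to 29.1%) of all listed peaks. Windows of the same size 300 bases away held it in 11.0% of RP cases and 12.2% overall. DRACH was present in 95.2% of RP windows and 95.9% of all windows. By region, GGACU was found in 6 of 21 exonic regions, 8 of 26 outside the canonical transcript and 1 of 27 intronic regions.

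Peaks of RP genes had a higher local background than the rest of their lists. The local mean recovered at the summit was higher at the median RP peak than at the median listed peak in all 14 libraries, for example 22.5 against 10.2 extended reads in NB4 Control 2. The median fold of RP peaks was lower than that of the list in all 14, and ranged from 2.96 to 6.57 against 3.84 to 8.01. RP genes also have 1600 annotated pseudogenes, and between 24 and 55 of these held a peak summit in a library, a small part of them. Pseudogenes that lie inside other genes were not left out of this count. The recurrent RPS29 region, for example, fell inside the pseudogene RPL32P29. How reads with several matching places were treated is not given in the sources used here, and their part in these counts was not tested.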

How the data were processed

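Processed peak lists of 14 IP libraries were used; the 14 input libraries are not analysed here. According to the study's methods, reads were trimmed (Trimmomatic 0.39), aligned to hg38 with HISAT2 2.1.0 and GENCODE release 29 in strand-specific mode, and split by strand (SAMtools 1.9). Peaks were called per library and strand with MACS version 2 (no model, 150-base extension, up to 5 duplicates, genome size 1.3e+08, q below 0.01). Each deposited list holds a score, the fold ratio over local background, and the −log10 p-value and −log10 q-value of the authors' caller. The lists give no counts of reads and were compared without a count model, and differences concern listed peaks, not methylation levels.

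Here, Python 3.11.15 with numpy 2.4.6, pandas 2.3.3 and scipy 1.17.1 was used, with GENCODE release 44 and chromosomes 1 to 22, X and Y. Pileup and local mean were solved from fold and p, and effective reads (the depth) from the lowest local mean. Pileups came out whole (within 0.05) in 11 libraries and not in HepG2 WT 1 and 2 and NB4 Control 3, where the depth is approximate. Percentiles rank −log10 q within a list. The best peak is the one with the highest rank. Lost genes had a peak in every Control and no KD library, and gained genes the reverse. The library was the unit of all exact permutation tests (two-sided), and labels were permuted within lines for both lines together (120 arrangements, smallest p 0.0167). Assignment, recovery and tests were checked on simulated data.

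The members, gene lists and tests were chosen with earlier results of these data known. Genes were named if lost, gained, listed in all libraries of one line and none of another, or listed in all 14; the 10 longest never listed were named too, and any other gene was named after its values were seen. Alternatives were another q threshold, equal list lengths, matched depth, other gene windows and member rules, each library left out, and a replicate block. Control and KD libraries of the same number did not deviate together (correlations from -0.123 to -0.0482 over genes), so the numbers were not treated as pairs. A few genes and 1 sequence that met these rules are not reported here by name.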

Additional observations from a re-analysis of the deposited data

Results flagged for a closer look

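The change on RBFOX2 KD in the percent of RP genes with a peak was looked at again because both K562 KD libraries lay below the K562 Control mean and all 3 NB4 KD libraries lay above the NB4 Control mean. The K562 change minus the NB4 change was -5.89 percentage points (exact permutation within lines, p = 0.05, adjusted over 3 measures 0.15; the smallest p possible is 0.0167). The same difference was -4.27 points after depth matching (exact permutation p = 0.05), -0.61 with lists of equal length (p = 0.883) and -5.49 with -log10 q of at least 10 (p = 0.0167). For log2 effective reads, the K562 change minus the NB4 change was -0.75 (exact permutation p = 0.05).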

How the results depend on the processing

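The lower promoter share of RP peaks on KD over both lines (-4.54 points) had an unadjusted exact permutation p of 0.0333 and did not pass after adjustment. It was -5.27 with -log10 q of at least 10 (exact permutation p = 0.05), -2.66 with equal list sizes, -4.34 without upstream bases, -2.66 without summits in another gene, -0.87 with the canonical start only and -0.78 within the canonical transcript (an alternative added after seeing the data). With a replicate block it was -4.54 (exact sign-flip p = 0.125), and leaving out each library gave -3.88 to -5.69, with exact permutation p from 0.05 to 0.0833 except without NB4 Control 3 or NB4 KD 3, where the unadjusted p was 0.0333. The NB4 promoter difference was 0 with the canonical start, 0.22 without summits in another gene and 2.56 within the canonical transcript. With equal list sizes the NB4 change in RP genes with a peak was -1.22 points. RP peaks per 1000 changed by -0.0951 over both lines (unadjusted exact permutation p = 0.0167, the smallest possible) and by -0.0474 in NB4 when RPL7L1, RPL22L1 and RPL26L1 were counted. Of these added genes only RPL7L1 had a peak in any list, so the shift rests on that gene alone. Without the added genes, leaving out NB4 libraries gave NB4 changes of -0.00483 (without NB4 KD 3) to 0.0292. The cause was not tested.

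Genes lost in K562 numbered 1 with -log10 q of at least 10, 0 with equal list sizes and 3 to 5 leaving out a library (5 without K562 KD 1). Genes gained in K562 numbered 0 with equal list sizes and 1 to 2 leaving out a library (2 without K562 KD 2). In NB4, 1 gene was gained with -log10 q of at least 10, and leaving out a library gave 0 to 1 gained (1 without NB4 KD 2) and 0 to 1 lost (1 without NB4 Control 1). With equal list sizes, 4 genes were listed in K562 WT and not HepG2 WT, 2 in the reverse (0 to 2 leaving out a library, 2 without HepG2 WT 1), 7 in K562 Control and not NB4 Control, and 0 in the reverse. That last count was also 0 with -log10 q of at least 10, and 1 to 2 leaving out a library (2 without NB4 Control 1 or 3). Whether the numbers pair the libraries is not known from the labels, and the replicate block took no other p across 0.05. Depth matching and counting any overlap of a peak took no p across 0.05 and changed no count by over 1.5 times. NB4 Control minus HepG2 WT in RP genes with a peak ranged from 2.03 points without HepG2 WT 1 to 6.91 without HepG2 WT 2. With 2 or 3 libraries a group, p-values in single lines cannot fall below 0.333 or 0.1.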

Other observations

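Peaks on the strand opposite to the RP genes, in the same windows, were found in a number of RP genes near that of the sense strand in several libraries. In HepG2 WT 1 and 2, 8 and 11 RP genes had an opposite-strand summit, with 13 and 17 peaks against 8 and 12 on the sense strand, and in the NB4 libraries between 9 and 13 did. In K562 WT it was 17 in each library, against 18 on the sense strand, and in the other K562 libraries between 10 and 13. The windows also cover genes of the opposite strand, such as TBC1D8 and RNF207, whose peaks were not set apart. The same count was not made for all protein-coding genes, so whether RP genes differ from them is not known.

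The share of A and G differed among the printed genes, and RPL31, RPL36 and RPS24 had high shares. In the 151-base window around the median summit, A and G made up 64.2, 62.3 and 64.2% of bases, at the 82nd, 75th and 82nd percentiles of all listed peaks. The windows of RPL13, RPL22 and RPL41, also printed, went the other way, with 47.0, 47.7 and 48.3% at percentiles 10.3, 11.9 and 13.6. Over the 18 RP regions listed in 7 or more libraries the median was 60.6%, and over all listed peaks 56.3%. This was noticed in the printed sequences and then counted.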
